A study of Homo sapiens with 24 samples.

Results

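The HOX cluster genes are the homeobox genes that lie side by side in 4 clusters, HOXA, HOXB, HOXC and HOXD, and H3K27Ac at these clusters was followed in 2 human mammary epithelial lines with and without ANCO1. ChIP-seq with an antibody to H3K27Ac, the acetylation of histone H3 on lysine 27 that marks active promoters and enhancers, was run in MCF10A cells (10A) and in MCFDCIS cells (DCIS). 10A is an immortal, non-tumorigenic breast line, and DCIS cells are derived from it and model ductal carcinoma in situ. Each line carried a lentiviral hairpin against ANCO1, the product of ANKRD11 (shANCO1), or a control hairpin against GFP (shCTRL), and all cells grew in medium with horse serum, EGF, hydrocortisone, insulin and cholera toxin. The labels gave 24 libraries in 8 groups of 3, since each of the 4 cell groups had immunoprecipitated and input chromatin. A single hairpin line stands for the knockdown in the H3K27Ac analysis, as its published legends say, so effects of ANCO1 loss and of that hairpin cannot be told apart. The labels do not say whether the 3 libraries came from separate cultures, and the spread behind each test may be technical. No value used here measures ANCO1 itself.

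A region of a deposited table counted as a HOX region when its annotation named a gene called HOX, a cluster letter and a number, in the overlap column or as the neighbour on the left or right. This gave 161 of the 171345 regions of 6 tables. In the tables of shANCO1 against shCTRL, 36 of 50284 regions in 10A and 35 of 44790 in DCIS were HOX regions. In the tables against input they were 20 of 15490 regions in 10A shCTRL, 28 of 28607 in 10A shANCO1, 21 of 15482 in DCIS shCTRL and 21 of 16692 in DCIS shANCO1. The tables hold 1 value per region and none per library, so no SD or n can be given. Each FDR is the authors' csaw value over all regions of a table. The comparison of shANCO1 with shCTRL had 3 libraries on each side. Which input libraries the tables against input used is not stated. Each log2 fold change belongs to 1 representative window of the region, with shANCO1 over shCTRL unless given as over input. A region is called up or down at FDR under 0.05.

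HOX proteins are homeodomain transcription factors that give cells their position along the body axis. Within a cluster the genes are transcribed from the same strand, with low paralog numbers at the 3′ end and high numbers at the 5′ end, and during development retinoic acid switches on the 3′ genes first. Polycomb complexes, which place methylation on the same lysine 27, keep silent HOX genes closed, and Trithorax complexes hold active ones open. In GENCODE release 44 on GRCh38 the clusters hold 39 genes. HOXA lies on chromosome 7 with 11 genes, HOXB spans chromosome 17 from 48528526 to 48728750 with 10, HOXC chromosome 12 from 53938831 to 54056030 with 9, and HOXD chromosome 2 from 176092721 to 176190907 with 9.

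The sequences below are those of the 3 called DCIS regions with the lowest FDR, of the single HOXD region of 10A, and of 2 promoters described further on. The 4 region stretches are the plus strand of GRCh38, either the whole 300 bp region or its central 300 bases. The 2 promoters are RefSeq sequences on GRCh38.p14, 250 bases before the annotated start on the minus strand, and none of the 6 stretches overlapped an annotated UTR. Capitals mark an AP-1 motif (TGANTCA), a TEAD motif (GGAATG) or a PBX-HOX motif (TGATTNAT) on either strand.

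HOXB9 region up in DCIS, chr17:48625501-48625800: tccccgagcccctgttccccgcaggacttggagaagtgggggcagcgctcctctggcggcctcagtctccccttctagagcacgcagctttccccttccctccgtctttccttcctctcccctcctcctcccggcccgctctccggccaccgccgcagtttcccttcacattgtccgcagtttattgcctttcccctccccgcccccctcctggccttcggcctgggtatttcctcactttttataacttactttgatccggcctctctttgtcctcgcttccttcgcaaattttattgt
HOXA3 intron region up in DCIS, chr7:27111251-27111550: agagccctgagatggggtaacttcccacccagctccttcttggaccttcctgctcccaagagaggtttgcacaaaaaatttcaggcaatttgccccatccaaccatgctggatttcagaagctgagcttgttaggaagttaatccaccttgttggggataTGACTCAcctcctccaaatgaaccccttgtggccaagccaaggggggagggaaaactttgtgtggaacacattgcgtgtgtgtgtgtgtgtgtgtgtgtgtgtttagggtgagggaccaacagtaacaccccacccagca
HOXA3 intron region with the largest gain of HOXA in DCIS, chr7:27113151-27113450: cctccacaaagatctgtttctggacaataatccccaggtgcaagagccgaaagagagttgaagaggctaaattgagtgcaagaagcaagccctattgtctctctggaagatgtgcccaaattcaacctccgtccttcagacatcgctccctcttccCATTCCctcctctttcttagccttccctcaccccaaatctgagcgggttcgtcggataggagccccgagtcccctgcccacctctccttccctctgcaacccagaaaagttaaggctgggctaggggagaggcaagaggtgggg
HOXD12 upstream region up in 10A, chr2:176097301-176097600: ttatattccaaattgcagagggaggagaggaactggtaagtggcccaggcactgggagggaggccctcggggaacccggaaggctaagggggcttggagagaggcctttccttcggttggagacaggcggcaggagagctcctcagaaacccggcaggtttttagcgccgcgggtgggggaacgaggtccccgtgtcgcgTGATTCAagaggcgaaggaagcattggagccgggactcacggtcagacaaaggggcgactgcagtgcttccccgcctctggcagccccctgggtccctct
HOXA9 promoter, chr7:27165538-27165787: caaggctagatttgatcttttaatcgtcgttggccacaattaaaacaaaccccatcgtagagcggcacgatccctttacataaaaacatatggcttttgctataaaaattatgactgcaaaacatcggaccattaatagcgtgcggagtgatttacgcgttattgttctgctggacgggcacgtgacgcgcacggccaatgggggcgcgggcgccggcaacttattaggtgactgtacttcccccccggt
HOXA2 promoter, chr7:27102684-27102933: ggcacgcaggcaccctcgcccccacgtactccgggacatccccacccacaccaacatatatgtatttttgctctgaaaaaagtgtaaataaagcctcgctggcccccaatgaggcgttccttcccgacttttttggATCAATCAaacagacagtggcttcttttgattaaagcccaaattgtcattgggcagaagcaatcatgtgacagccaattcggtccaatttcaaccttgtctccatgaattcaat

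H3K27Ac over input showed which parts of the clusters carried the mark. HOXA held most of it in each of the 4 groups, HOXC came next, HOXB had 2 regions in every group, and HOXD had none in 10A and 1 in each DCIS group. Marked HOX sequence came to 19.7 kb in 10A shCTRL and 42.7 kb in 10A shANCO1, against 13.7 kb in DCIS shCTRL and 15.8 kb in DCIS shANCO1. In HOXA alone it was 16.5 kb in 10A shCTRL, 15.4% of the cluster, and 30.0 kb in 10A shANCO1, 28.0% of it. DCIS had 7.6 kb in shCTRL and 8.2 kb in shANCO1, or 7.1% and 7.66%. The marked length of the whole genome also rose between the 10A tables, from 9030 kb to 25200 kb, and went from 11000 kb to 11900 kb in DCIS. Each table was called separately, so these lengths follow how much was called. The tables against input list essentially enriched regions alone, with 100% of the regions in 10A shCTRL, 100% in 10A shANCO1, 100% in DCIS shCTRL and 100% in DCIS shANCO1 enriched to rounding.

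**Figure D1:**
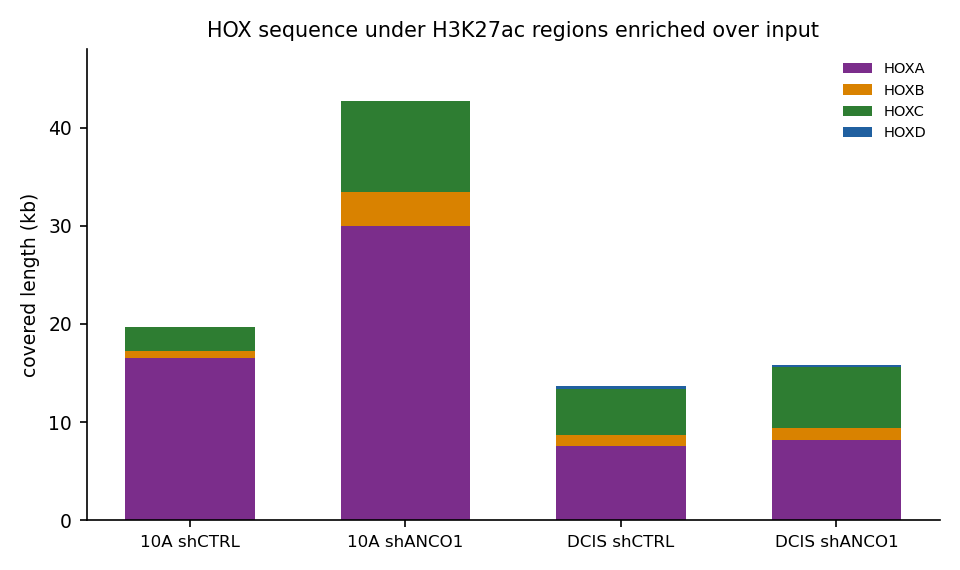
Length of HOX sequence (kb) under regions enriched over input in the 4 cell groups, stacked by cluster. HOXA makes up 16.5 of 19.7 kb in 10A shCTRL and 30.0 of 42.7 kb in 10A shANCO1, and the DCIS bars stand at 13.7 and 15.8 kb.

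The widest marked block of 10A shCTRL lay between HOXA4 and HOXA5, over 5000 bp from 27135601 to 27140600, where the representative window was 4.54 log2 units over input. In 10A shANCO1 this stretch was covered by 2 adjoining regions, with 8.42 and 4.89 log2 units over input. These are values of representative windows in tables called separately, so their difference does not measure the change. In shANCO1 against shCTRL the 10A regions over this stretch had log2 fold changes of 0.86, 0.90 and 0.56. The widest DCIS block was also next to HOXA5, a gene needed for lung development, and measured 2200 bp in each group, with 5.71 log2 units in shCTRL and 5.48 in shANCO1. The genes HOXA4, HOXA5, HOXC8, HOXC9 and HOXC11 had an enriched region within 1 kb of the GENCODE canonical start in all 4 groups. HOXA7 and HOXA11 did so in both DCIS groups, HOXA7 in 10A shANCO1 but not 10A shCTRL, and HOXA11 in neither 10A group. In all, 8 of 39 starts were marked in 10A shCTRL, 12 in 10A shANCO1 and 9 in each DCIS group. HOXA2, HOXA7, HOXA10 and HOXC5 made up the 4 additional starts of 10A shANCO1. In DCIS the 9 marked starts were not the same: HOXA10 and HOXB2 were marked in shCTRL alone, and HOXC13 in shANCO1 alone. These on and off states are calls in separate tables and their difference was not tested.

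In 10A, 28 of 36 HOX regions were up in shANCO1 (77.8%) and none was down, with 8 not called. Among all regions tested in 10A, 43.6% were up and 0.225% down. The median log2 fold change was 0.90 at HOX regions and 0.76 over all regions. Of the 36 HOX regions 35 were positive, beside 91.8% of all regions. The HOX values stayed within a narrow band, from -0.11 near HOXC13 to 1.48 at HOXA9, and no HOX region lay 1 log2 unit or more above the median of the line. The quartiles of all 10A regions were 0.46 and 1.03. HOX regions were also wide, with a median of 2150 bp against 1000 bp. The share of windows up was 48.5% at HOX regions, 358 of 738, and 36.6% over the table. Width differed between the sets, and its part in the counts was not tested.

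In DCIS, 12 of 35 HOX regions were up (34.3%), 2 were down (5.71%) and 21 were not called. The table as a whole had 23.6% up and 4.86% down. The median log2 fold change was 0.74, against 0.52 over all regions. Of the 35 HOX regions 25 were positive, beside 66.9% of all regions. The HOX values spread from -2.08 at HOXA9 to 2.42 at HOXB9, and the quartiles of all DCIS regions were -0.25 and 1.21. The share of windows up at HOX regions, 11.5% or 61 of 529, was under the 17.5% of the table. The counts of regions and of windows thus lay on opposite sides of their background. Members with a promoter code can be read against regions with such a code for any gene, of which 50.8% were up and 0.128% down in 10A, and 16.3% up and 3.27% down in DCIS.

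**Figure D2:**
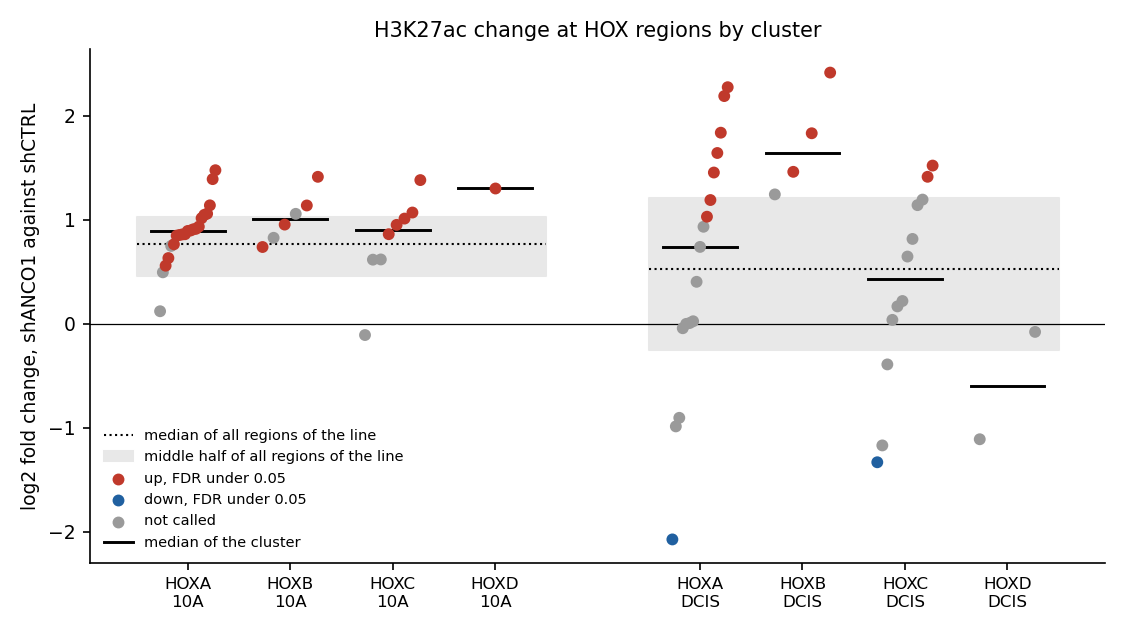
Log2 fold change of every HOX region, shANCO1 against shCTRL, by cluster and line, coloured by the authors' call. Black bars are cluster medians, dotted lines the medians of all regions (0.76 in 10A and 0.52 in DCIS) and grey bands their middle 50%. All 10A points but 1 are above 0, as were 91.8% of all 10A regions, whereas the DCIS points run from -2.08 to 2.42.

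The called regions differed in whether the mark itself was found there. In 10A, 18 of 36 HOX regions lay over a region enriched in shCTRL and 25 over one enriched in shANCO1, where 23.5% and 45.2% of all regions did. In DCIS it was 17 of 35 in each group, where 27% of all regions lay over shCTRL and 30.3% over shANCO1 enrichment. Of the 28 up regions of 10A, 4 lay over neither, whereas 9 of the 12 up regions of DCIS and both of its down regions did. Among all regions, 29.9% of the up regions of 10A and 61.5% of those of DCIS lay over neither. The DCIS gains described next were therefore mostly at sites with no called enrichment in either group, at a depth that the tables do not give.

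HOXA was the cluster with most regions. In 10A, 18 of its 21 regions were up and none was down, beside 43.6% and 0.225% of all regions. The median log2 fold change was 0.89, with a range of 0.12 to 1.48. The lowest FDR was in an intron of HOXA3, which shapes the thymus and parathyroid, at 27114101 to 27117600. There 22 of 34 windows were up, with a log2 fold change of 1.02 and FDR 0.000478. The largest gain covered the start of HOXA9, a gene of blood progenitors and of leukaemia, at 27161801 to 27166000, with 1.48 and FDR 0.0176, though with 3 of 40 windows up. Neighbouring regions overlapped at their ends in several places on the 3′ side of HOXA5, so such regions are pieces of longer blocks and not separate observations. The 3 regions not called were 200 to 400 bp wide, with values of 0.12, 0.49 and 0.75.

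Of the 9 HOXA genes with a 10A region within 1 kb of the canonical start, 8 were up, where 63.1% of all protein-coding genes with such a region were up and 0.0441% down. The 8 had log2 fold changes from 0.56 at HOXA5 to 1.48 at HOXA9. At HOXA5 the FDR was 0.0175 with 24 of 34 windows up, and enriched sequence lay within 1 kb of its start in both groups. HOXA7 had 0.85 (FDR 0.00218, 6 of 10 windows) and HOXA4 0.91 (FDR 0.00739, 14 of 19). HOXA10, which acts in the uterus and in blood cells, had 1.05 with FDR 0.000728 and 13 of 25 windows up, with enriched sequence within 1 kb of its start in shANCO1 and none listed there in shCTRL. HOXA11, also a uterine and limb gene, had 1.14 with FDR 0.0114 and 8 of 10 windows up, with no enriched region listed at its promoter in either group. The exception was HOXA6, with 0.75 and FDR 0.119 in a 300 bp region 827 bp from its start. In DCIS none of the 7 HOXA genes with such a region was up and HOXA9 alone was down, where 6.46% of all such genes were up and 1.87% down. HOXA4 had 0.40 (FDR 0.637) and HOXA11 -0.0015 (FDR 0.999) there.

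In DCIS, the called HOXA gains lay on the 3′ side of the cluster and the single called loss on the 5′ side. Among all DCIS regions 23.6% were up, 4.86% down and 66.9% positive. The 12 regions on the 3′ side, as far as HOXA6, all had positive values, from 0.01 to 2.28 with a median of 1.11, and 7 were up. The 5 regions from HOXA7 to HOXA11 all had values under 0, from -2.08 to -0.0015 with a median of -0.91, and 1 was down. Of these, 2 on each side were within 0.05 of 0, with FDR of 0.986 to 0.999, so their signs carry no weight, and 4 of the 5 regions on the 5′ side were not called. The boundary was placed after the values were seen, so no test is given. The same division in 10A gave 12 of 15 regions up with a median of 0.89 on the 3′ side, and 6 of 6 up with a median of 0.95 on the 5′ side. Among all 10A regions 43.6% were up.

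**Figure D3:**
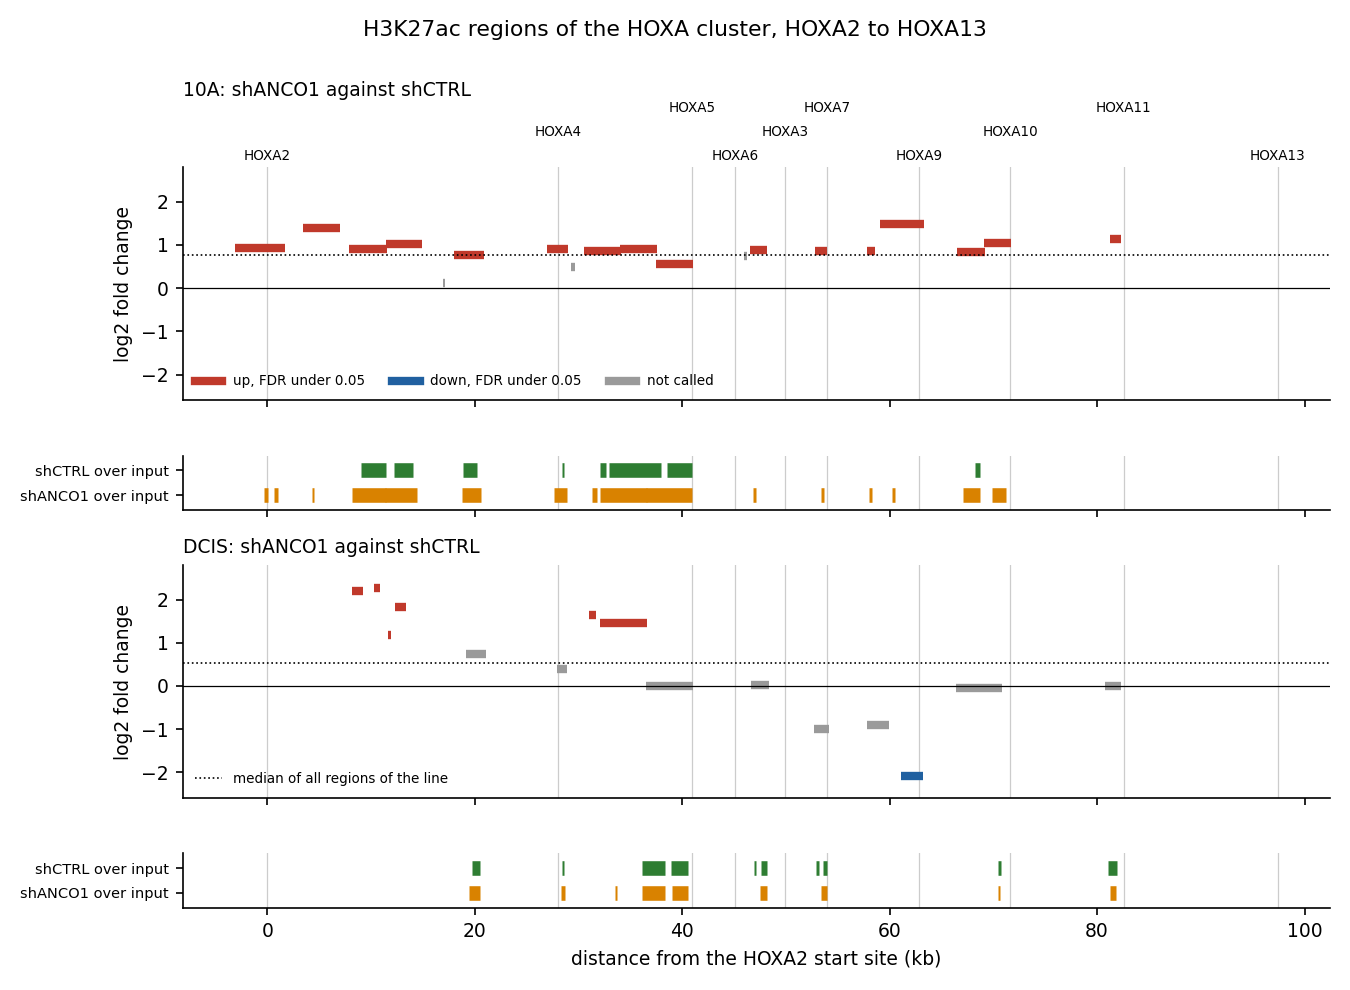
HOXA cluster from HOXA2 to HOXA13 by distance from the HOXA2 start site (kb). Bars give each region's width and log2 fold change in 10A (top) and DCIS (bottom), the strips under them the regions enriched over input, and grey lines the canonical starts. In 10A every bar is above 0, as were 91.8% of all 10A regions. In DCIS the bars go from 2.28 in the HOXA3 introns to -2.08 at HOXA9.

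The DCIS gains in HOXA gathered in introns of HOXA3. The region at 27110901 to 27111900, whose centre is printed above with its AP-1 match, had 7 of 8 windows up, a log2 fold change of 2.19 and FDR 0.000119. The region at 27113001 to 27113600, printed with its TEAD match, had 5 of 5 windows up, 2.28 and FDR 0.000747. A 300 bp region at 27114301 followed with 1.19 and FDR 0.0335, and a region of 1100 bp at 27115001 with 1.84 and FDR 0.0101. These 2 were picked out after their values were seen. None of the 4 lay over an enriched region in DCIS. In 10A the same stretch was enriched in both groups. Its enriched regions had 3.58 and 2.88 log2 units over input in shCTRL, and 4.08 and 4.96 in shANCO1. In shANCO1 against shCTRL the stretch rose by 0.91 (FDR 0.00142) and 1.02. Between HOXA4 and HOXA5, 2 more DCIS regions were up, with 1.64 (FDR 0.00600) and 1.45 (FDR 0.0128). At the marked HOXA5 start itself the DCIS value was 0.01 with FDR 0.998, and 0 of 44 windows were called.

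HOXA9 was the gene at which the lines were called in opposite directions. The DCIS region at 27163801 to 27165900 covers its canonical start and exon and UTR sequence, as does the 10A region around it. The DCIS region was down by -2.08 with FDR 0.00843, with 3 of 17 windows down. The wider 10A region was up by 1.48, with 3 of 40 windows up. Which windows were called is not given, so the opposite calls need not fall on the same sequence. No enriched region lay under the DCIS region in either DCIS group. The 10A region held a 300 bp enriched region in shANCO1 (4.76 log2 units over input) and none in shCTRL. That enriched region, at 27162901 to 27163200, lay outside the DCIS region and 2337 bp from the HOXA9 start. In DCIS the regions on either side were not called, with -0.91 (FDR 0.451) towards HOXA7 and -0.04 (FDR 0.986) towards HOXA10. The HOXA7 start had -0.99 with FDR 0.167 in DCIS, with 0 of 13 windows down, and was marked in both DCIS groups. The difference between the lines was not tested, as the tables give no spread to test it with.

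MIR196B, a microRNA gene between HOXA9 and HOXA10, lay inside a HOX region in both lines. The 10A region at 27169201 to 27171900 was up by 0.85 with FDR 0.00820, and the DCIS region at 27169101 to 27173500 had -0.04 with FDR 0.986. miR-196 is known to target HOX messages, and the mature 5p forms of its HOXA, HOXB and HOXC copies share the seed, bases 2 to 8, shown in capitals from RefSeq.
hsa-miR-196b-5p: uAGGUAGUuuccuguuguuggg
hsa-miR-196a-5p: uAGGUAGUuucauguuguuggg
The HOXC copy, MIR196A2, lay 1938 bp from the DCIS region in HOXC10 that was up by 1.52 with FDR 0.0492. The HOXB copy, MIR196A1, lay 6690 bp from the HOXB9 region of DCIS. These are distances only, as the mark over a microRNA gene does not give the level of the microRNA.

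HOXB had few regions, 6 in 10A and 4 in DCIS, and none of them was down. In 10A, 4 were up, beside 43.6% of all regions. HOXB4, which promotes self-renewal of blood stem cells, had the lowest FDR at 48577001 to 48577300. There 2 of 2 windows were up, with a log2 fold change of 1.41 and FDR 0.00368. This region lay 1050 bp from the HOXB4 start and over no enriched region in either 10A group. HOXB3 had the largest gain among called regions with 5 or more windows, 0.95 with FDR 0.0107. In DCIS, 3 of 4 were up with a median of 1.65, beside 23.6% up and a median of 0.52 over all regions. The HOXB9 region printed above had the lowest FDR of all HOX regions in either line, 8.38e-05, with 2.42 in 2 of 2 windows. It is 300 bp wide, with 48 coding bases of HOXB9 and the remainder in the intron. HOXB6 rose by 1.83 with FDR 0.00983 in 5 of 5 windows over a coding exon. Both stood over no enriched region. In 10A the overlapping regions were not called, at 1.06 (FDR 0.0723) and 0.83 (FDR 0.0962). HOXB2, a hindbrain gene, was up in both lines in a region that held enriched sequence in every group, by 0.74 (FDR 0.0339) in 10A and 1.46 (FDR 0.00198) in DCIS.

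The called HOXC gains of 10A mostly overlapped, in part, sequence enriched in shCTRL. In 10A 5 of 8 HOXC regions were up, beside 43.6% of all regions and 50.8% of those with a promoter code for any gene. The median was 0.91, and 4 of the 5 up regions lay over shCTRL enrichment, as did 7573 of all 21913 up regions of 10A. The shCTRL enrichment under these 4 measured 200 to 900 bp. The lowest FDR of the 10A HOX regions, 0.000413, was at 54016001 to 54020500, over UTR exons of HOXC4 and HOXC6 transcripts, where 21 of 44 windows were up with 1.01. The enriched sequence under it measured 500 bp in shCTRL and 3400 bp in shANCO1. These lengths were called separately, and the called length of the whole genome also rose, from 9030 kb to 25200 kb. HOXC8 had the largest gain, 1.38 with FDR 0.00526, in 3 of 16 windows over its start. HOXC11 rose by 0.95 (FDR 0.000750) and HOXC9 by 0.86 (FDR 0.0160). HOXC13, which acts in hair and nail, had 0.62 with FDR 0.0705. In DCIS the same 5 sites were not called, with FDR from 0.0796 at HOXC9 to 0.940 at HOXC4. HOXC11 had 1.19 with 0 of 26 windows up, HOXC9 1.14 with 1 of 21, the HOXC4 and HOXC6 site 0.65 with 0 of 40, HOXC5 0.22 and HOXC8 -0.39. All but the HOXC5 region lay over enriched sequence in both DCIS groups.

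**Figure D4:**
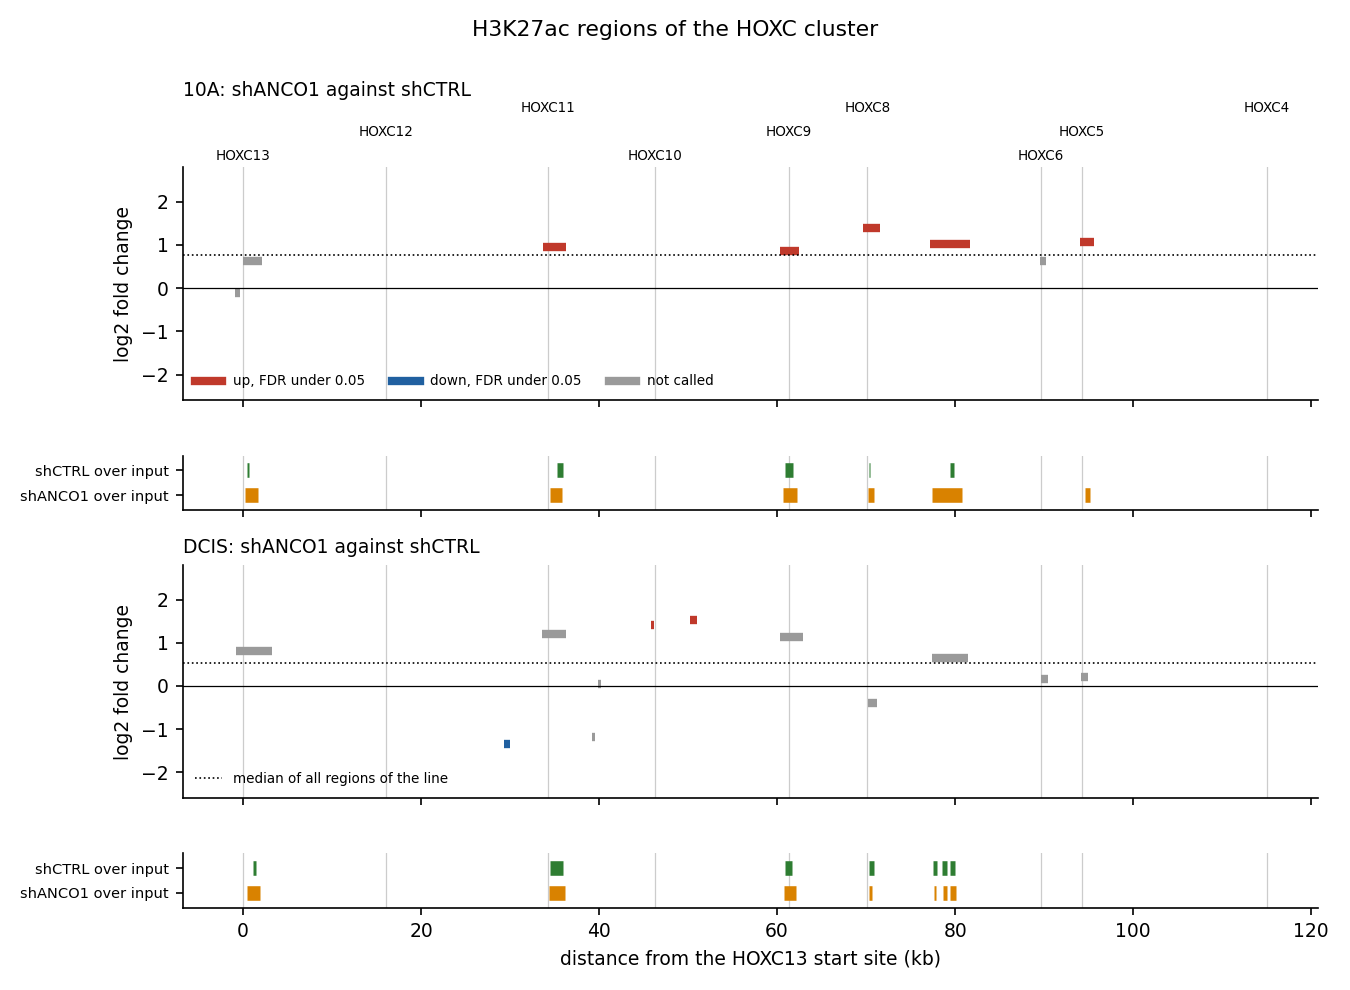
HOXC cluster by distance from the HOXC13 start site (kb), drawn as for HOXA. The 5 regions up in 10A lie at 0.86 to 1.38, and the called DCIS regions, 1 down at -1.33 and 2 up at 1.41 and 1.52, overlap no 10A region.

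The 3 called HOXC regions of DCIS stood apart from the shared sites. A 700 bp region 4326 bp from the start of HOXC11 was down by -1.33 with FDR 0.0394, in 4 of 6 windows. At HOXC10 a region 146 bp from its start was up by 1.41 (FDR 0.0405), and one over its exon and UTR sequence by 1.52 (FDR 0.0492). The FDR values of all 3 are close to the threshold. Of the 12 DCIS HOXC regions, 16.7% were up and 8.33% down, beside 23.6% and 4.86% of all regions. Of the 12, 5 overlapped no 10A region, and none of these 5 lay over an enriched region. The share of all DCIS regions that overlap no 10A region is not given.

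HOXD was nearly empty. The only 10A region, printed above, lay 2095 bp from the start of HOXD12 and was up by 1.31 with FDR 0.00306 in 3 of 4 windows, though 10A had no enriched HOXD region. HOXD12 and its neighbour HOXD13 pattern the digits. In DCIS a region at the same place was weakly marked, with 2.57 log2 units over input in shCTRL and 3.16 in shANCO1, and had -1.11 with FDR 0.455. A region in HOXD3 had -0.08 with FDR 0.952. No region in either line carried a promoter code for HOXD1, HOXD4, HOXD8, HOXD9, HOXD10 or HOXD11.

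Counted by gene, the promoter code of the tables was used. Set against GENCODE starts, 98% of 59614 such codes fell within 5 kb of a start of the named gene, so a region can carry the codes of several HOX genes. In 10A, 25 of 39 genes had such a region, and at the region with most windows 21 were up and none down, over 20 distinct regions. By the same rule 62.9% of all genes were up and 0.0475% down. In DCIS, 26 genes had one, over 18 regions, and 8 were up and none down, where 13.8% of all genes were up and 2.72% down. Among the 8 were HOXA4, HOXB2, HOXB5, HOXB6, HOXB9 and HOXC10. In 10A, HOXB5, HOXB6, HOXB9 and HOXC13 had a region that was not called, and all 10 HOXA genes with a region were up. Besides the 6 HOXD genes, HOXA13, HOXB1, HOXB7, HOXB8, HOXB13 and HOXC12 had no promoter-coded region in either line. Held to regions within 1 kb of the canonical start, 13 of 17 genes were up in 10A, and 3 up and 1 down of 16 in DCIS, beside the 63.1% up in 10A and the 6.46% up and 1.87% down in DCIS of all such genes.

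Of the 36 HOX regions of 10A, 28 overlapped a DCIS region, 25 in number. Of these pairs 6 were up in both lines, 5 of them in HOXA and 1 in HOXB, and 1, at HOXA9, was up in 10A and down in DCIS. Among the 5 in HOXA, 2 have the same DCIS region, at 27134801 to 27139300, and are not separate observations. In 16 pairs 10A was up and DCIS not called, in 2 DCIS was up and 10A not called, and in 3 neither was called. The 2 called in DCIS alone were those of HOXB6 and HOXB9. A call in a single line is not a difference between the lines, which was not tested. The same pairing is not given for all regions, so neither the pairs nor the regions without a partner can be read against a background. Of the 8 regions of 10A without a partner, 5 were up, among them those over the HOXA2 start with 0.93 (FDR 0.0120) and between HOXA2 and HOXA3 with 1.39 (FDR 0.00579).

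**Figure D5:**
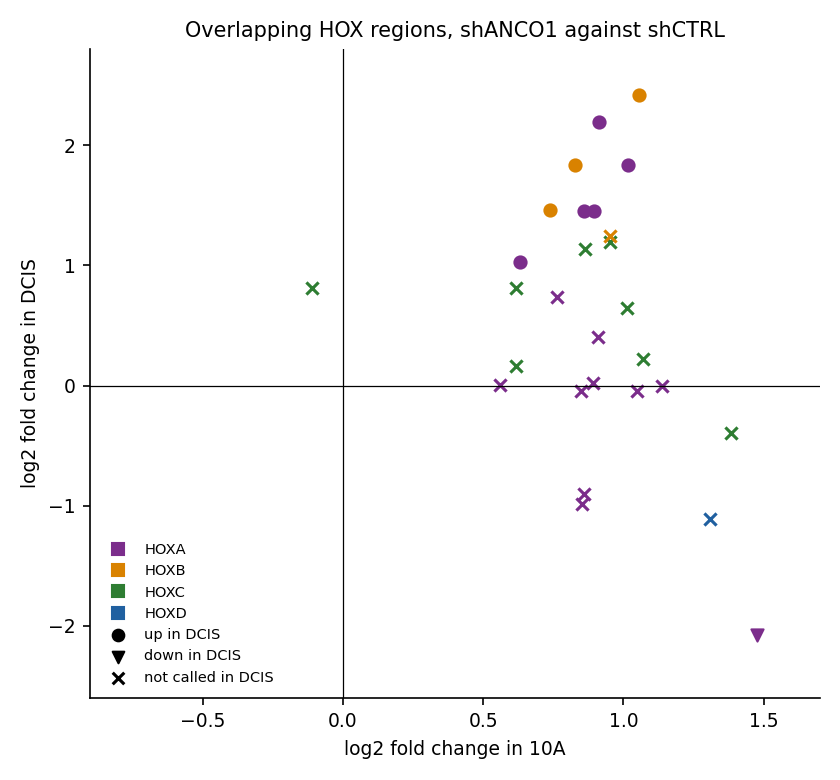
Log2 fold change in 10A and in DCIS for the 28 overlapping pairs of HOX regions, coloured by cluster and with the DCIS call as the marker. The 10A values stay between -0.11 and 1.48 while the DCIS values run from -2.08 to 2.42, and the lowest DCIS point, HOXA9, has the highest 10A value of the pairs.

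The noncoding genes of the clusters mostly shared the regions of their neighbours. Of 20 listed, 13 had a promoter-coded region in 10A, 12 of them up, and 15 had one in DCIS, 5 of them up, where 62.9% and 13.8% of all genes were up. Several genes share a region, so these counts rest on 10 distinct regions in 10A and 11 in DCIS. HOTAIR, a long RNA from the HOXC cluster known to bind Polycomb proteins, rose by 0.95 with FDR 0.000750 in 10A, in the region it shares with HOXC11, and had 1.19 with FDR 0.136 in DCIS. Of the 12 genes that flank the clusters, 6 had a region in each line. HIBADH and CBX5 were up in 10A, by 1.07 and 1.15, and SKAP2 in DCIS, by 1.51 with FDR 0.0234.

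HOX proteins bind DNA with partner proteins of the TALE homeodomain class. In 10A, 6 of the 8 TALE genes with a promoter-coded region were up, beside 62.9% of all genes. PBX3 had 1.92 with FDR 0.000100 in 19 of 19 windows, MEIS1 had 1.42 (FDR 0.000563) and MEIS2 had 1.28 (FDR 0.00438). TGIF2 was not called, with 0.59. In DCIS 1 of 8 was up, beside 13.8% of all genes, PBX4 by 1.44 with FDR 0.00172. PBX3 and MEIS1 had -0.36 and -0.61 there, with FDR 0.968 and 0.861. The median of the 8 was 1.00 in 10A and -0.48 in DCIS, beside 0.83 and 0.31 over all genes with such a region.

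Of 10 genes on the Trithorax side, the writers and partners that keep HOX genes active, 9 were up in 10A and none in DCIS, where 62.9% and 13.8% of all genes were up. Their medians were 0.81 and 0.02, and those of all genes 0.83 and 0.31. KMT2A, a methyltransferase required for HOX expression, had 0.71 (FDR 0.00526) in 10A and -0.61 (FDR 0.648) in DCIS. KDM6B, a demethylase of lysine 27, had 1.25 (FDR 6.00e-05) in 10A and 0.96 (FDR 0.180) in DCIS. Of the 11 Polycomb genes with a region, 5 were up in 10A, a share under the 62.9% of all genes. JARID2, a Polycomb partner, rose by 1.48 with FDR 0.000311 in 26 of 35 windows, and EZH2, the lysine 27 methyltransferase, by 0.92 with FDR 0.0221 but in 1 of 19 windows. None was up in DCIS, beside 13.8% of all genes, and 1 was down, beside 2.72%. It was CBX2, a reader of that methylation, by -1.53 with FDR 0.00967 in 7 of 11 windows. The medians were 0.79 and -0.65.

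In the retinoic acid pathway, 3 of 6 genes with a region were up in 10A, under the 62.9% of all genes: RARA, RARG and CYP26B1, which breaks retinoic acid down. CYP26B1 had the largest value, 1.44 with FDR 0.000139. In DCIS 3 of 9 were up and 1 was down, where 13.8% of all genes were up and 2.72% down. RARG, a receptor, rose by 1.72 with FDR 0.000796, RXRA, its partner, by 1.43 with FDR 0.0491, and ALDH1A2, which makes retinoic acid, by 1.61 with FDR 0.0215. RARB, itself a retinoic acid target, was down by -2.14 with FDR 0.000601 in 10 of 10 windows.

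AP-1 and PBX-HOX letters were less frequent in the HOX regions than in all regions of both lines, and the TEAD letters lay above their background in 10A and below it in DCIS. No test was run. In the central 300 bases the AP-1 letters were in 1 of 36 HOX regions of 10A (2.78%) and in 16.3% of all its regions, and in 1 of 35 in DCIS (2.86%) beside 13.4%. The 2 are the HOXD12 and the HOXA3 stretches printed above. The TEAD letters were in 22.2% of the HOX regions and 18% of all regions in 10A, and in 11.4% and 17.4% in DCIS. The PBX-HOX letters were in none of the 36 and in 1 of the 35, beside 5.31% and 3.71%. Median GC content was 55.3% at HOX regions and 46.7% over all regions of 10A, and 53.7% and 50.3% in DCIS. Among 27 RefSeq promoters of 20 HOX genes, 8 held the TEAD letters (29.6%) and 2, of HOXA2 and HOXD11, the PBX-HOX letters (7.41%), against 14% and 2.82% of all 35116 promoters. No HOX promoter held the AP-1 letters, which 7.71% of all promoters did. A match is a run of letters and not a bound site.

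As a check of the labelled cell type, 3 of 6 epithelial genes, KRT5, TP63 and EGFR, had an enriched promoter-coded region in both 10A groups. In both DCIS groups 4 of the 6 did, KRT5, KRT17, EGFR and CDH1. KRT14 had none in any group, KRT17 and CDH1 had none in 10A, and TP63 had none in DCIS. Of 4 genes of other tissues, ESR1, PTPRC and ACTA1 had none, and PECAM1, an endothelial gene, had one in all 4 groups. The depth of the libraries is not given by the tables.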

How the data were processed

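H3K27Ac ChIP-seq and input libraries of 10A and DCIS cells with shANCO1 or shCTRL were used as 6 region tables deposited by the authors. Per the study's methods, reads were aligned to GRCh38 with BWA and Rsubread, duplicates were removed with samtools, and csaw tested binding. Per the labels, FastQC, SAMtools and HOMER were also run. The deposited log2 fold change is that of 1 representative window per region, and the deposited p-value and FDR come from the authors' test, adjusted within each table. The deposited window numbers are no read counts. Normalization, window filter and merging distance were not given in the sources used here, and the unknown scaling could shift all log2 fold changes of a line together. Depth and replicate spread are unknown, so no SD or interval is given.

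Here Python 3.11.15 with pandas 2.3.3 selected HOX regions by their annotation, counted calls at FDR under 0.05, paired regions of the 2 lines by most shared bases and set regions over enriched regions at 1 bp of overlap. Features came from GENCODE release 44 and sequences from GRCh38 and RefSeq. All 32 RefSeq promoters and hairpins compared were equal to the genome. Counting steps were tested on simulated data. Each HOX gene was described by the promoter-coded region with most windows, and regions with coordinates by lowest FDR and largest change per cluster. The largest change was taken among called regions with at least 5 windows, and the lowest FDR at any number of windows. Other regions were picked after their values were seen. Members and lists were chosen with earlier results of these data known. Some genes are not reported here. No set test was run. Alternatives covered FDR, fold change, window number, annotation and overlap rules.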

Additional observations from a re-analysis of the deposited data

How the results depend on the processing

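No paired analysis was possible because the tables hold no value per library, so no library could be left out either, and another normalization could not be tried. Of 67 alternatives, 48 stayed within 1.5 times the count, or within the spread over regions of a median, and 19 moved. At FDR under 0.01, 10A kept 16 HOX regions as up, while DCIS had 6 up and 1 down, with 4 DCIS genes up at their promoter. With a change of at least 1 log2 unit required, 12 regions were up in 10A. At 1 log2 unit or more from the line's median, 0 were up in 10A and 6 in DCIS. All regions also spread more widely in DCIS, with quartiles of -0.25 and 1.21, than in 10A, with 0.46 and 1.03. The share of all regions called at these FDR and fold change thresholds is not given, so these HOX counts have no background. Restricted to regions over enriched sequence, an alternative chosen after seeing the data, 3 HOX regions were up and 0 down in DCIS. In 10A 24 were up. With the region nearest to the start, 10A had 13 genes up and DCIS 3 up and 1 down, and with the lowest FDR 2 DCIS genes were down and 12 up. At FDR under 1e-10 over input, 10 regions were left in 10A shCTRL and 12 in DCIS shCTRL. With at least 5 windows the marked regions numbered 8 in 10A shCTRL, 18 in 10A shANCO1, 9 in DCIS shCTRL and 11 in DCIS shANCO1. The medians of both sides of HOXA kept their sign in each line when split by the nearest start or held to 5 windows. The cause of these moves was not tested beyond the smaller sets each rule leaves.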
